A study of Mus musculus with 56 samples.

Results

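Antibody and B-lineage transcripts were examined in the livers of female APOE*3Leiden.CETP mice, through 10 genes chosen by name with earlier results of these counts known, out of 45513 genes listed in the files. They are the heavy chain constant genes Ighm, Ighg2b, Ighg2c, Ighg3 and Igha, the kappa light chain constant gene Igkc, the joining chain Jchain, the antigen receptor partners Cd79a and Cd79b, and the plasma cell chaperone Mzb1. Because the choice drew on these counts, differences of the 10 genes between groups are given as a description, without p-values, and standard errors, intervals and counts past the cut-off are read no further than that. The medians of Ighg2b, Ighg2c, Igha, Igkc and Jchain were highest in ponatinib 10, while that of Ighm was highest in L-NAME and that of Ighg3 in ponatinib 3. In ponatinib 10 Igkc had a median of 26.3 CPM (counts per 1e6 reads on genes, with library sizes scaled by TMM) against 6.94 CPM in control. In 8 of 8 mice of that group Jchain and Ighg2b exceeded every control mouse. The share of all genes that did so is not given here, and nothing is read from it. Cd79a lay lowest in the same group, with a median of 0.133 CPM against 1.04 CPM and no read in 4 of 8 mice. All of these genes were rare in liver, a few mice carried a large part of several group means, and values are therefore given per mouse.

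All 56 mice carried human APOE*3Leiden with APOC1 and human CETP transgenes, were 9 to 14 weeks of age at the start, and ate a Western-type diet with 15% cacao butter and 0.15% cholesterol. Each of 7 groups held 8 mice, and the study's methods give 16 weeks of treatment for control and the kinase inhibitors; the duration for L-NAME is not given in the sources used here. Control mice received the vehicle, 5% carboxymethyl cellulose, by gavage. The tyrosine kinase inhibitor imatinib was given at 150 mg/kg 2 times daily, nilotinib at 10 or 30 mg/kg once daily and ponatinib at 3 or 10 mg/kg once daily. Mice of the control, nilotinib and ponatinib groups received a second gavage of vehicle. L-NAME, an inhibitor of nitric oxide synthase, was given in drinking water at 0.12 to 0.20% to mice that also received vehicle by gavage. Groups are called imatinib, nilotinib 10, nilotinib 30, ponatinib 3, ponatinib 10, L-NAME and control. The human transgenes are one limit of the model, since they set its lipid metabolism in all groups, controls included. Each library came from the liver of 1 mouse, and mice are named by the library number in their label.

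Reads on genes ranged from 5342379 to 97473341 per library with a median of 7570238, the highest being L-NAME mouse 010, and the next 17996732 in control mouse 001. At the median depth 3 reads corresponded to 0.396 CPM, which is the level below which a gene was not reliably seen. Reads aligned outside annotated genes made up a median of 7.85% in control and 10.9% in ponatinib 10, and in nilotinib 10, nilotinib 30, ponatinib 10 and L-NAME all 8 mice lay above every control mouse. Hepatocyte markers were abundant in every group, with mean Alb between 72039 CPM in nilotinib 30 and 106807 CPM in ponatinib 3. In bulk tissue, fewer cells of a type and less RNA per cell cannot be told apart.

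As background, a B cell displays its immunoglobulin on the surface together with CD79A and CD79B, which carry the signal into the cell. Once it becomes a plasma cell it secretes large amounts of antibody and lowers the surface receptor. Each antibody pairs a heavy chain, whose constant gene sets the class (IgM, IgD, IgG, IgA or IgE), with a kappa or lambda light chain, and the joining chain links IgM and IgA into polymers that hepatocytes and epithelia can take up through the polymeric immunoglobulin receptor. Liver holds few plasma cells, so that a small number of cells can set the level measured in a piece of tissue.

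The constant genes lie at 2 loci. On chromosome 12 of GRCm38, on the minus strand, lie Ighm (ENSMUSG00000076617, chr12:113418558-113422730), Ighg3 (ENSMUSG00000076615, chr12:113356224-113361232), Ighg2b (ENSMUSG00000076613, chr12:113302965-113307933), Ighg2c (ENSMUSG00000076612, chr12:113285325-113288932) and Igha (ENSMUSG00000095079, chr12:113254830-113260236). Igkc (ENSMUSG00000076609) lies at chr6:70726435-70726966 on the plus strand and is annotated as 1 exon interval. Jchain (ENSMUSG00000067149) lies at chr5:88519809-88527891 on the minus strand, Cd79a (ENSMUSG00000003379) at chr7:24897381-24902197 on the plus strand and Cd79b (ENSMUSG00000040592) at chr11:106311341-106314762 on the minus strand. The IgG genes resemble one another, which bears on how reads are assigned to them. The first 90 bases of the annotated transcripts are given 5′ to 3′ from GENCODE M21, with capitals in the Ighg2c and Ighg3 sequences where the base is not that of Ighg2b at the same place.
Ighg2b: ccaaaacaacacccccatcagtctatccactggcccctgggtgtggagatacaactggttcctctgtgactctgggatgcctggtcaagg
Ighg2c: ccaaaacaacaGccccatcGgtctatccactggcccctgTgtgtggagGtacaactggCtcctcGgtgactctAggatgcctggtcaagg
Ighg3: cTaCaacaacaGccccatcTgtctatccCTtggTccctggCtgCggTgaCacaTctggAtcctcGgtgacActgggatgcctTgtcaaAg
In these stretches Ighg2c differed from Ighg2b at 7 of 90 bases and Ighg3 at 17 of 90.

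Over whole transcripts, 4.15% of the 50-base words of Ighg2b and 5.49% of those of Ighg2c also occurred in another gene, against 1.58% for Ighg3 and none for Ighm, Igha, Igkc, Jchain and Cd79b. A read from such a stretch would be lost as not unique, so the IgG classes could be told apart over most of their length. For Cd79a the share was 8.31%, all with the gene model Gm32220. Mzb1 shared 53.5% of its words with the overlapping gene SPATA24, which is not among the genes listed in the files, so whether reads of that gene were counted to Mzb1 cannot be told, and its values are uncertain. The genes that showed no shared word are represented below by the light chain and the classes with most reads.
Igkc: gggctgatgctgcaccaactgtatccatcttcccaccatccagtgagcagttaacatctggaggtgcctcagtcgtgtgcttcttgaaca
Ighm: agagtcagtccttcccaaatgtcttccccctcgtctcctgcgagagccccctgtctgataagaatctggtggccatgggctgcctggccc
Igha: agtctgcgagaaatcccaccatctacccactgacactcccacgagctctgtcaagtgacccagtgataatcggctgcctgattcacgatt
The 90 bases shown are again the start of each annotated transcript.

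Across the 56 mice the 10 genes spanned a wide range. Ighm drew 12827 reads in all and Igkc 9985, and both had reads in every mouse. Ighg3 drew 179 reads and had none in 38 of 56 mice, and Mzb1 drew 271 and had none in 28. Per kilobase of exon, the control medians were 13.0 CPM per kb for Igkc, 8.75 for Ighm, 1.15 for Cd79b, 0.966 for Igha, 0.713 for Cd79a, 0.492 for Jchain, 0.353 for Ighg2b, 0.333 for Ighg2c and 0.0319 for Mzb1, while Ighg3 was at 0 in all 8 control mice. Of the 10 genes, 8 passed the filter on low counts that precedes the fit across genes, and Ighg3 and Mzb1 did not. Where the 7 groups are ordered by their mean log2 CPM, only 1 of 60 steps between neighbouring groups was larger than the pooled SD within groups, that of Mzb1 from imatinib to L-NAME. As this sets steps between means of 8 mice against the spread of single mice, it cannot show that neighbouring groups did not differ.

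**Figure D1:**
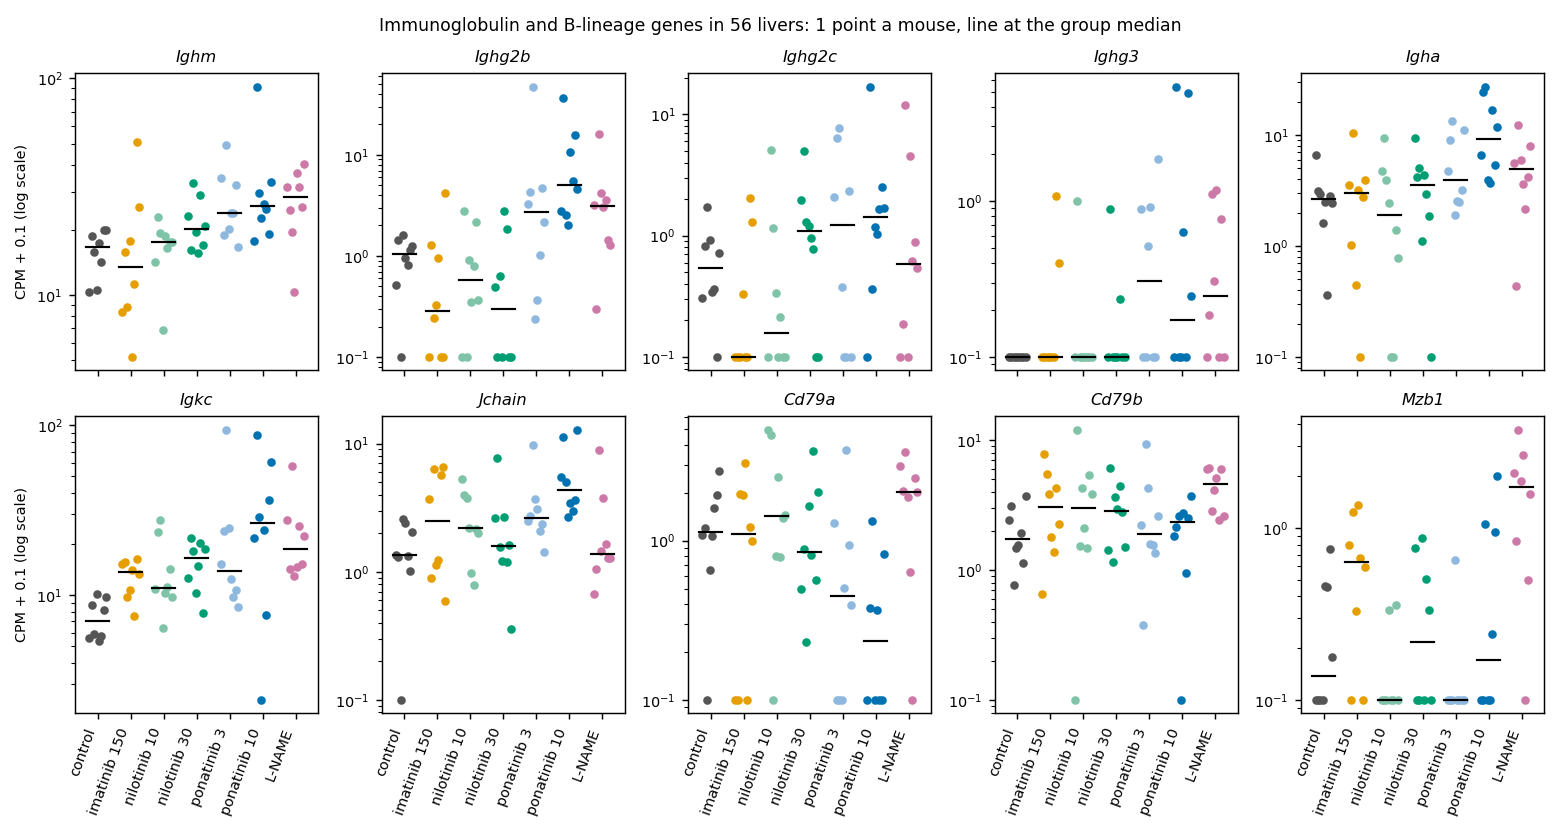
CPM + 0.1 on a log scale of the 10 antibody and B-lineage genes, 1 point a mouse, 8 mice a group, with a line at each group median. Ponatinib 10 has the highest medians of Ighg2b (4.97 CPM), Igha (9.13 CPM), Igkc (26.3 CPM) and Jchain (4.22 CPM) and the lowest of Cd79a (0.133 CPM), while single mice such as ponatinib 3 mouse 017 stand far above the rest of their group.

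Igkc, the constant part of the kappa light chain, was seen in every mouse. In control it lay between 5.31 and 10.0 CPM, with a median of 6.94 CPM. In imatinib it ran from 7.43 through a median of 13.6 to 16.2 CPM, in nilotinib 10 from 6.32 through 10.9 to 27.7 CPM and in nilotinib 30 from 7.74 through 16.4 to 21.7 CPM. In ponatinib 3 the lowest, median and highest values were 8.40, 13.7 and 93.9 CPM, in ponatinib 10 they were 2.31, 26.3 and 88.0 CPM, and in L-NAME 12.9, 18.6 and 57.7 CPM. All 8 L-NAME mice thus lay above every control mouse, as did 7 of 8 in nilotinib 30 and 6 of 8 in each of imatinib, nilotinib 10, ponatinib 3 and ponatinib 10, and 1 ponatinib 10 mouse (018) lay below every control mouse. The share of all genes that lay apart in this way is not given here, and nothing is read from these counts. The log2 fold changes against control were 0.80 ± 0.42 (SE) in imatinib, 0.96 ± 0.41 in nilotinib 10, 1.08 ± 0.41 in nilotinib 30, 1.76 ± 0.42 in ponatinib 3, 2.20 ± 0.42 in ponatinib 10 and 1.69 ± 0.42 in L-NAME. Ponatinib 3 mouse 017 held a value of 93.9 CPM where the next of its group had 24.8 CPM, and without it the log2 fold change in ponatinib 3 was 1.03.

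Ighm, the mu chain of IgM and the most abundant heavy chain by reads, ran from 10.2 through a median of 16.5 to 19.9 CPM in control. Its lowest, median and highest values were 5.07, 13.4 and 50.8 CPM in imatinib, 6.79, 17.4 and 22.9 CPM in nilotinib 10 and 15.5, 20.1 and 32.8 CPM in nilotinib 30. They were 16.5, 23.8 and 48.9 CPM in ponatinib 3, 17.6, 25.5 and 91.4 CPM in ponatinib 10 and 10.2, 28.3 and 40.3 CPM in L-NAME. In each of the last 3 groups 6 of 8 mice lay above every control mouse. The log2 fold change in ponatinib 10 was 1.07 ± 0.31, and 0.65 without mouse 008, whose Ighm of 91.4 CPM compared with 33.0 CPM in the next mouse. In ponatinib 3 it was 0.79 ± 0.31 and in L-NAME 0.79 ± 0.31, and in imatinib, nilotinib 10 and nilotinib 30 it was 0.18 ± 0.31, 0.08 ± 0.31 and 0.46 ± 0.31.

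Ighg2b encodes the heavy chain of an IgG subclass and was the IgG gene with most reads. Control mice lay between 0 and 1.51 CPM with a median of 0.944 CPM, and the medians of imatinib, nilotinib 10 and nilotinib 30 were 0.185, 0.481 and 0.198 CPM. In ponatinib 3 it ran from 0.139 through 2.62 to 47.1 CPM, in ponatinib 10 from 1.91 through 4.97 to 36.5 CPM and in L-NAME from 0.201 through 3.04 to 16.0 CPM. Ponatinib 10 and control did not overlap, whereas ponatinib 3 and L-NAME each had 5 of 8 mice above every control mouse. Nothing is read from this, as the share of all genes without overlap is not given here. The log2 fold changes against control were 3.15 ± 0.94 in ponatinib 3, 3.50 ± 0.95 in ponatinib 10 and 2.19 ± 0.92 in L-NAME (1.38 without mouse 026, and -0.63 in limma voom with sample quality weights), with values between -0.39 ± 0.96 and -0.02 ± 0.96 in the other 3 groups. Mouse 017 alone held 75.4% of the summed Ighg2b CPM of ponatinib 3, whose mean was 7.81 CPM with it and 2.20 CPM without it, and the log2 fold change without it was 1.32. Without mouse 008 the log2 fold change in ponatinib 10 was 2.80.

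The other IgG genes among the 10 were near the limit of the depth. Ighg2c, the IgG2c heavy chain, had a control median of 0.442 CPM and a ponatinib 10 median of 1.33 CPM, and its highest value, 16.8 CPM, was again in ponatinib 10 mouse 008. Its log2 fold change in ponatinib 10 was 2.46 ± 1.19 with that mouse and 0.99 without it. Ponatinib 3 had an Ighg2c median of 1.13 CPM, with 4 of 8 mice above every control mouse. In each of ponatinib 10, nilotinib 30 and L-NAME 2 of 8 mice did so. The log2 fold change was 2.04 in ponatinib 3 (1.48 without mouse 017) and 1.99 in L-NAME (0.65 without mouse 026). In nilotinib 30 it was 1.23, in nilotinib 10 0.53 and in imatinib -0.36. Ighg3, the IgG3 heavy chain, had no read in any control mouse, while 4 of 8 ponatinib 3 mice, 4 of 8 ponatinib 10 mice and 5 of 8 L-NAME mice had at least 1 read. Its highest value was 5.29 CPM, from 57 reads in ponatinib 10 mouse 008, and no read in a library of median depth allows a level of up to 0.396 CPM.

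Igha, the alpha chain of IgA, ran from 0.264 through a median of 2.58 to 6.50 CPM in control. Its medians were 2.88 CPM in imatinib, 1.82 CPM in nilotinib 10, 3.47 CPM in nilotinib 30, 3.86 CPM in ponatinib 3 and 4.80 CPM in L-NAME. In ponatinib 10 it ran from 3.60 through 9.13 to 27.1 CPM, and 5 of 8 mice lay above every control mouse. The log2 fold change was 2.18 ± 0.69 in ponatinib 10 and between 0.01 ± 0.69 and 1.13 ± 0.68 in the other 5 groups. The highest value belonged to mouse 014, not to mouse 008, and without mouse 014 the log2 fold change was 1.91.

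Jchain, which joins IgM and IgA into polymers and marks antibody-secreting cells, ran from 0 through 1.24 to 2.47 CPM in control. Its lowest, median and highest values were 0.496, 2.37 and 6.44 CPM in imatinib, 0.691, 2.09 and 5.22 CPM in nilotinib 10 and 0.255, 1.49 and 7.63 CPM in nilotinib 30. They were 1.33, 2.51 and 9.64 CPM in ponatinib 3, 2.59, 4.22 and 12.7 CPM in ponatinib 10 and 0.565, 1.27 and 8.75 CPM in L-NAME. Ponatinib 10 and control did not overlap, and 4 of 8 mice in imatinib and in ponatinib 3 lay above every control mouse. As for Ighg2b, nothing is read from this. The log2 fold change against control was 2.02 ± 0.60 in ponatinib 10, with a range of 1.76 to 2.17 when each mouse was left out in turn. It was 1.15 ± 0.59 in imatinib, 0.83 ± 0.59 in nilotinib 10, 0.67 ± 0.59 in nilotinib 30, 1.23 ± 0.59 in ponatinib 3 and 0.75 ± 0.59 in L-NAME, where the value was 0.05 without mouse 026 and -0.19 in limma voom with sample quality weights.

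Cd79a and Cd79b encode the signaling chains of the B cell antigen receptor, which B cells use and plasma cells largely do without. Cd79a ran from 0 through 1.04 to 2.63 CPM in control, from 0 through 0.133 to 1.22 CPM in ponatinib 10 and from 0 through 1.93 to 3.50 CPM in L-NAME. The medians of imatinib, nilotinib 10, nilotinib 30 and ponatinib 3 were 1.01, 1.32, 0.751 and 0.350 CPM. No ponatinib 10 mouse lay above the highest control mouse, and since 1 control mouse had no read either, the groups overlapped at 0. The log2 fold change of Cd79a was -1.85 ± 0.97 in ponatinib 10, -0.60 ± 0.93 in ponatinib 3 and 0.63 ± 0.92 in L-NAME, with 95% intervals that included 0 in all 3.

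Cd79b did not follow Cd79a in ponatinib 10. It ran from 0.673 through 1.65 to 3.64 CPM in control, from 0 through 2.23 to 3.65 CPM in ponatinib 10 and from 2.31 through 4.53 to 5.98 CPM in L-NAME. The medians were 2.97 CPM in imatinib, 2.90 CPM in nilotinib 10, 2.77 CPM in nilotinib 30 and 1.80 CPM in ponatinib 3. In L-NAME 5 of 8 mice lay above every control mouse, in ponatinib 10 1 of 8. The log2 fold change was 0.04 ± 0.58 in ponatinib 10 and 1.15 ± 0.58 in L-NAME, and between 0.52 ± 0.58 and 0.95 ± 0.58 in the other 4 groups.

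Mzb1, a chaperone of the endoplasmic reticulum in marginal zone B cells and plasma cells, had no read in 4 of 8 control mice and a highest control value of 0.652 CPM. L-NAME had the highest median, 1.63 CPM, with 6 of 8 mice above every control mouse. In ponatinib 10, where Jchain and Igkc were highest, Mzb1 had no read in 4 of 8 mice and a highest value of 1.90 CPM, and in ponatinib 3 it had no read in 7 of 8. It did not pass the filter on low counts, and no fold change was fitted.

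Read against all 14314 genes tested, the number of these genes past the study's cut-off (unadjusted p below 0.01) was 0 of 8 in imatinib, where 12.9% of all genes passed, 0 of 8 in nilotinib 10 (5.97% of all genes) and 0 of 8 in nilotinib 30 (9.35%). It was 2 of 8 in ponatinib 3 (3.14%), Ighg2b and Igkc, both higher, and neither passed an adjusted p of 0.05. In ponatinib 10 it was 5 of 8, all higher (15.0% of all genes), namely Ighm, Ighg2b, Igha, Igkc and Jchain, and in L-NAME 1 of 8, Igkc (14.0%). The genes had been chosen with such differences in view, and nothing is read from these counts. The 6 comparisons share the same 8 control mice.

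**Figure D2:**
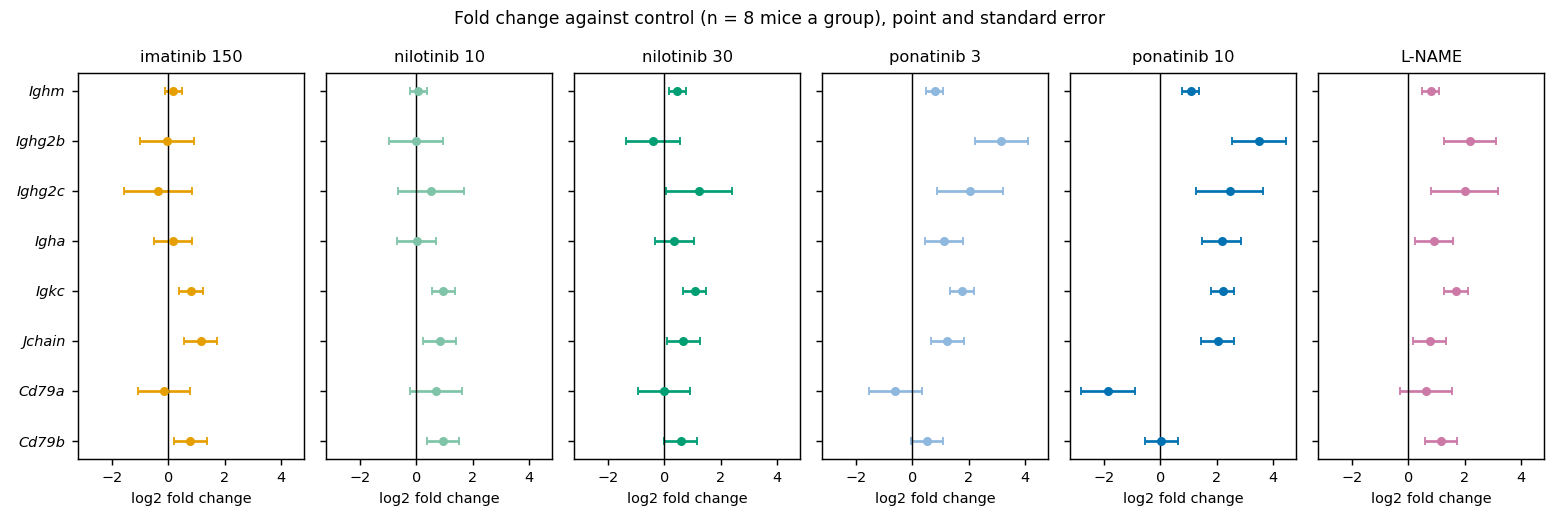
Log2 fold change against control of the 8 genes that passed the filter on low counts, with the standard error as a bar, 8 mice a group, 1 panel a treatment. In ponatinib 10, Ighg2b (3.50), Igkc (2.20), Igha (2.18) and Jchain (2.02) lie to the right of 0 and Cd79a (-1.85) to the left.

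From ponatinib 3 to ponatinib 10 the log2 difference was 0.44 ± 0.40 for Igkc (95% interval -0.34 to 1.22), 0.79 ± 0.57 for Jchain, 1.05 ± 0.67 for Igha and -1.25 ± 0.97 for Cd79a, and 0 of 8 genes passed the cut-off (5.78% of all genes did). Between nilotinib 30 and nilotinib 10 it was 0 of 8 (1.32%), and between imatinib and nilotinib 30 also 0 of 8 (7.55%). At the same 10 mg/kg once daily, ponatinib lay above nilotinib by 3.52 ± 0.96 for Ighg2b, 2.17 ± 0.70 for Igha, 1.25 ± 0.41 for Igkc and 1.00 ± 0.31 for Ighm on the log2 scale, and these 4 of 8 passed the cut-off (6.73% of all genes), from which nothing is read, as for the comparisons with control. Ponatinib 10 lay above imatinib, at a different dose and schedule, for the same 4 of 8 genes (4.09%), with 3.55 ± 0.96 for Ighg2b and 1.40 ± 0.41 for Igkc. Without ponatinib 10 mouse 008 the counts were 2 against nilotinib 10 and 1 against imatinib, and without imatinib mouse 039 the latter was 2.

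The heavy chain classes differed between groups in the mix of reads. Shares were taken among reads on the annotated heavy chain constant genes of a mouse, 98 to 3483 reads with a median of 261. They are shares of reads, not of molecules, as the genes differ in length. IgM took a median of 73.0% in control mice and 51.4% in ponatinib 10 mice. The 4 IgG genes together took a median of 5.81% per mouse in control, with a range of 3.08 to 12.0%. The median was 4.88% in imatinib, 3.79% in nilotinib 10, 5.13% in nilotinib 30, 12.4% in ponatinib 3, 18.3% in ponatinib 10 and 8.32% in L-NAME. In ponatinib 10 the range over mice was 4.75 to 41.6% and in ponatinib 3 it was 3.20 to 46.0%, so both overlapped the control range. The 3 highest IgG shares were 47.1% in L-NAME mouse 026 (270 of 573 reads, exact 95% interval 43.0 to 51.3%), 46.0% in ponatinib 3 mouse 017 (403 of 877, 42.6 to 49.3%) and 41.6% in ponatinib 10 mouse 042 (161 of 387, 36.6 to 46.7%). These intervals cover counting error only. No read on Ighe, the IgE heavy chain, was found in any group.

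The share of IgD was lower in ponatinib 10 and that of IgA higher, with no test of either. Ighd, the delta chain that naive B cells carry beside mu, took a median of 13.1% of heavy chain reads in control, 2.71% in ponatinib 10, 8.13% in ponatinib 3 and 20.5% in L-NAME. By level, Ighd had medians of 2.84 CPM in control, 1.86 CPM in ponatinib 10 and 8.11 CPM in L-NAME, and its log2 fold change was -0.03 ± 0.57 in ponatinib 10 (adjusted p = 0.984) and 1.36 ± 0.57 in L-NAME (adjusted p = 0.115), neither of which passed. Igha took a median of 10.4% in control and 16.3% in ponatinib 10. Its highest share was 51.4% in imatinib mouse 016 (72 of 140 reads, exact 95% interval 42.8 to 60.0%), and the next was 43.4% in ponatinib 10 mouse 014 (311 of 716, 39.8 to 47.2%).

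**Figure D3:**
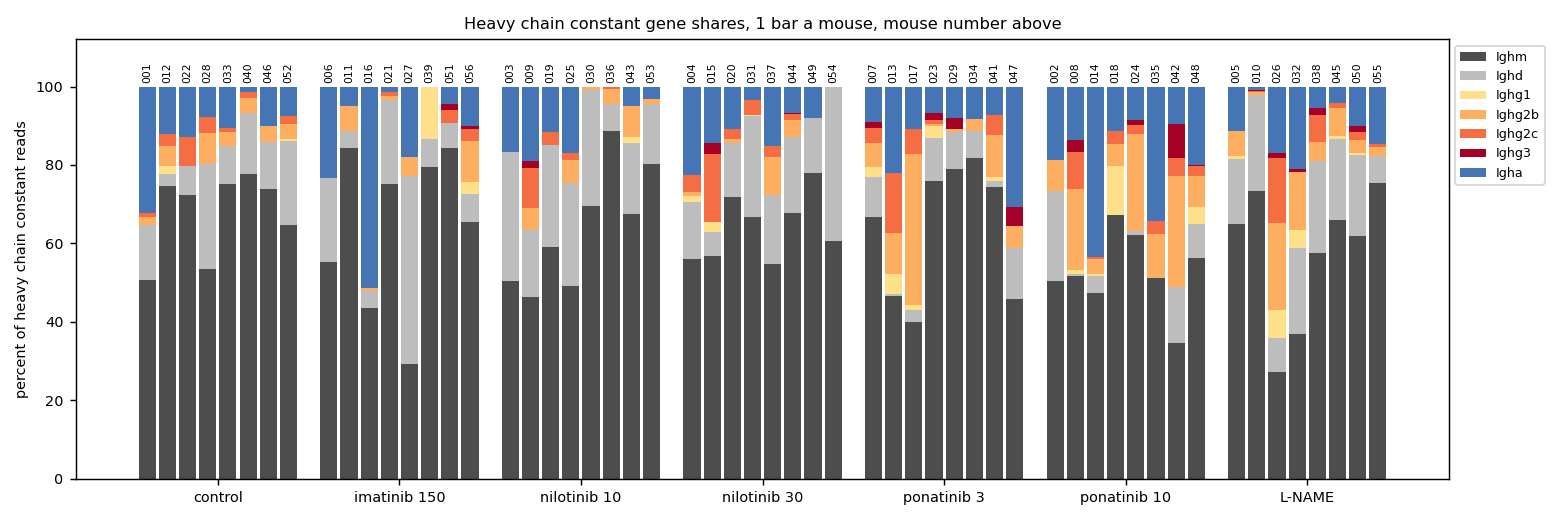
Percent of heavy chain constant gene reads on each of 7 genes in each of the 56 mice, 1 bar a mouse with its number above, in 7 groups. The IgG segments are widest in ponatinib 3 mouse 017, ponatinib 10 mouse 042 and L-NAME mouse 026 (46.0, 41.6 and 47.1% together), and the Ighd segment is narrow in most ponatinib 10 mice, with a median of 2.71%.

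The light chains were mostly kappa. Of reads on kappa and lambda constant genes, kappa took a median of 84.3% in control and between 82.1% in imatinib and 90.6% in nilotinib 10 in the treated groups. The lowest share belonged to ponatinib 10 mouse 035, with 53 of 125 reads (42.4%, exact 95% interval 33.6 to 51.6%). Iglc1, a lambda constant gene, had its highest value of 9.69 CPM in that mouse. It had a median of 2.90 CPM in ponatinib 10 and of 0 in control, and its log2 fold change of 3.93 ± 1.33 passed in ponatinib 10 (adjusted p = 0.0385) but no longer passed the cut-off without mouse 035.

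Reads on the variable (V) genes were few, with group medians of 11 (control) to 35 (L-NAME) kappa V reads per mouse. The number of different antibodies behind a value can therefore not be told from them. Of 113 heavy chain V genes listed, 57 had a read in some mouse and 22 of these in 1 mouse only. Of 100 kappa V genes, 67 had a read and 21 of these in 1 mouse only. In the 23 mice with at least 20 kappa V reads, the most read V gene took between 6.96 and 100% of them, with a median of 33.7%, and 17 different genes held that place. In the 14 mice with at least 20 heavy chain V reads, 14 different genes did.

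The mice with most antibody transcript differed in their top heavy chain V gene. Igkv6-17 drew 152 reads in 8 mice and was the top kappa V gene of ponatinib 3 mouse 017 (59 of 175 reads), ponatinib 10 mouse 008 (53 of 205), L-NAME mouse 026 (13 of 45) and L-NAME mouse 038 (11 of 25). The last of these had 83.3 CPM over all immunoglobulin genes, against 148 CPM or more in the other 3. The top heavy chain V genes of mice 017, 008 and 026 were Ighv10-1, Ighv1-75 and Ighv3-8. Ponatinib 10 mouse 048 had Igkv3-5 on top, with 33 of 49 reads. The library of L-NAME mouse 010, far deeper than the others, had 316 kappa V reads over 36 genes, and its top gene Igkv1-135 took 22 of them. The number of V genes seen moves with depth and is not compared between groups, and no V gene passed the filter on low counts.

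**Figure D4:**
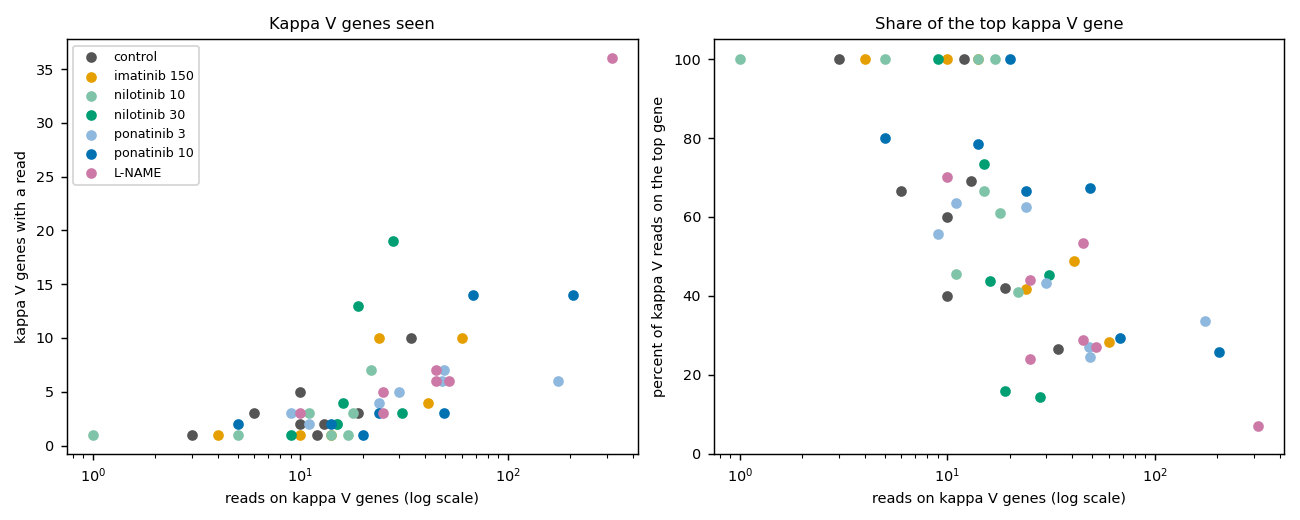
Kappa V genes with a read (left) and percent of kappa V reads on the top gene (right) against the number of kappa V reads on a log scale, 1 point a mouse that had such reads. L-NAME mouse 010 lies apart with 316 reads, 36 genes and a top share of 6.96%, while ponatinib 10 mouse 008 has 14 genes at 205 reads and ponatinib 3 mouse 017 has 6 genes at 175 reads.

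Genes of the B lineage that were not among the 10 give the wider setting. The 5 lists held 61 genes, of which 60 were listed and 54 tested. In ponatinib 10 1 of 54 was higher and 6 were lower (15.0% of all genes passed), with a median log2 fold change of -0.23 against -0.01 over all genes. In imatinib 1 was higher and 9 lower (12.9%; median -0.27 against -0.02), in L-NAME 2 higher and 3 lower (14.0%; median 0.37 against 0.02). The counts were 0 and 2 in nilotinib 10 (5.97%), 0 and 1 in nilotinib 30 (9.35%) and 0 and 1 in ponatinib 3 (3.14%). Except in imatinib, these counts did not exceed the share of all genes, and nothing is read from them. The lower genes included Pik3ap1, Syk and Sdc1, which other cells of the liver express as well, and the part of those cells was not tested. Levels of the receptors that define B cells and plasma cells were low.

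Among plasma cell genes, Slamf7, a surface receptor also found on NK and myeloid cells, fell in ponatinib 10 and in imatinib. It ran from 0.269 through 4.26 to 8.68 CPM in control, from 0 through 0.900 to 1.33 CPM in ponatinib 10 and from 0.397 through 1.25 to 1.71 CPM in imatinib. The log2 fold changes were -2.64 ± 0.65 (adjusted p = 0.0038) and -1.95 ± 0.63 (adjusted p = 0.0363), the latter past the cut-off in edgeR and DESeq2 but not in limma voom. Derl3, which helps to clear misfolded proteins from the endoplasmic reticulum, fell in ponatinib 10, from a control median of 31.9 CPM (15.5 to 96.9) to 13.3 CPM (3.09 to 25.2), with a log2 fold change of -1.66 ± 0.41 (adjusted p = 0.00407). In ponatinib 3 its value was -1.35 ± 0.41 (adjusted p = 0.207), past the cut-off except without control mouse 001, where it was -1.03. Sdc1, the plasma cell marker CD138 that hepatocytes express strongly, fell by 0.48 ± 0.17 in ponatinib 10 (adjusted p = 0.0455) and by 0.53 ± 0.17 in L-NAME (adjusted p = 0.0294) on the log2 scale, the former not past the cut-off when any 1 of 7 mice was left out. In L-NAME Ell2, an elongation factor used in antibody secretion, also fell, by 0.48 ± 0.15 (adjusted p = 0.0216).

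Among other plasma cell markers, Tnfrsf17 stayed near 0, while Prdm1 and Irf4 had control medians of 1.25 and 1.02 CPM. Tnfrsf17, the receptor BCMA, had no read in control, imatinib or ponatinib 3 and a highest value of 0.521 CPM in L-NAME. Ponatinib 10 had no read of it in 6 of 8 mice and a highest value of 0.142 CPM. Prdm1, which drives plasma cell differentiation, had medians of 1.25 CPM in control and 0.658 CPM in ponatinib 10, a log2 fold change of -0.77 ± 0.87 (adjusted p = 0.644). For Irf4, another such factor, the value there was 0.66 ± 1.00 on the log2 scale (adjusted p = 0.749). Of the 14 genes listed for plasma cells 12 were tested, with 3 lower in ponatinib 10 (15.0% of all genes passed), 2 in L-NAME (14.0%), 2 in imatinib (12.9%), 1 in nilotinib 10 (5.97%) and 1 in ponatinib 3 (3.14%), with Slamf7, Derl3, Sdc1 and Ell2 as the genes concerned.

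Among genes of mature B cells, H2-Ob had its highest median in L-NAME rather than in ponatinib 10. For Ms4a1, which encodes CD20, the log2 value in ponatinib 10 was 0.61 ± 1.00 (adjusted p = 0.771), which did not pass. Of 15 tested genes of the B cell surface list, Cd83 fell in ponatinib 10, by 1.10 ± 0.34 on the log2 scale (adjusted p = 0.0215), but not past the cut-off without control mouse 001, and it passed the cut-off in imatinib at -0.92 ± 0.34 (adjusted p = 0.065), though not without any 1 of 6 mice. H2-Ob, a chaperone subunit of class II antigen presentation in B cells, rose in L-NAME by 1.57 ± 0.50 (adjusted p = 0.028), from a median of 2.33 to 6.37 CPM. Among 8 tested B cell transcription factors, Tcf3 rose by 0.52 ± 0.16 in imatinib (adjusted p = 0.0258) and by 0.52 ± 0.16 in L-NAME (adjusted p = 0.0199), the latter no longer past the cut-off without L-NAME mouse 032.

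In the antigen receptor signaling list, all 14 genes were tested, and 6 were lower in imatinib (12.9% of all genes passed) and 2 in ponatinib 10 (15.0%), the latter a share near that of all genes. Syk, the kinase that CD79A and CD79B recruit, fell in imatinib by 1.14 ± 0.25 on the log2 scale (adjusted p = 0.00169), from a median of 26.7 to 11.7 CPM. Pik3ap1, an adaptor to phosphoinositide 3-kinase, fell by 1.34 ± 0.26 in ponatinib 10 (adjusted p = 0.000314), by 1.23 ± 0.26 in nilotinib 30 (adjusted p = 0.00203), by 1.11 ± 0.26 in L-NAME (adjusted p = 0.0023), by 1.08 ± 0.26 in imatinib (adjusted p = 0.00366) and by 0.99 ± 0.26 in nilotinib 10 (adjusted p = 0.0331). Its control median was 65.5 CPM and that of ponatinib 10 was 29.5 CPM. In ponatinib 3, with a median of 53.3 CPM, the value was -0.33 ± 0.25 (adjusted p = 0.728), and ponatinib 10 lay below ponatinib 3 by -1.01 ± 0.26 (adjusted p = 0.032). Vav1 and Pik3cd fell in imatinib, by 1.01 ± 0.28 (adjusted p = 0.0128) and 0.77 ± 0.22 (adjusted p = 0.0154), and in ponatinib 10 Pik3cd passed the cut-off at -0.60 ± 0.22 (adjusted p = 0.0549), though not without any 1 of 8 mice. Kupffer cells, the macrophages of the liver, express several of these genes, and the summed level of the 10 Kupffer cell markers had a median of 1247 CPM in control, 755 CPM in imatinib and 1171 CPM in ponatinib 10. The part of Kupffer cells in these differences was not tested.

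Factors that draw, feed or bind antibody-producing cells were examined next. Of 11 niche genes only 4 passed the filter, among them Cxcl13, the chemokine that draws B cells into follicles. In ponatinib 10 Cxcl13 was higher by 5.49 ± 1.23 on the log2 scale (adjusted p = 0.00143), but this rested on mouse 008, with 143 CPM against 8.91 CPM in the next mouse (048), and without mouse 008 it was 2.37 and no longer past the cut-off, nor was it past it in DESeq2 or limma voom with all mice. The highest value of ponatinib 3, 14.8 CPM, was in mouse 017, and the highest of control was 2.56 CPM in mouse 052. Thus the mice with most Cxcl13 in the ponatinib groups, 008, 017 and 048, were also those with most Igkc. Tgfb1, a signal for switching to IgA, fell by 0.91 ± 0.30 in ponatinib 10 (adjusted p = 0.0325; past the cut-off no longer without mouse 002 or mouse 035) and by 0.88 ± 0.30 in imatinib (adjusted p = 0.0476; no longer without imatinib mouse 016, 027 or 051 or control mouse 052).

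Pigr, the polymeric immunoglobulin receptor that carries joined IgA and IgM across cells, fell in 5 of 6 treated groups. Of 8 tested antibody receptor and transport genes, 1 was higher and 3 lower in imatinib (12.9% of all genes passed), and 1 was lower in each of nilotinib 10 (5.97%), nilotinib 30 (9.35%), ponatinib 10 (15.0%) and L-NAME (14.0%), and 1 of 8 is near the share of all genes in the last 3. Control mice lay between 1016 and 1963 CPM with a median of 1471 CPM. In ponatinib 10 Pigr fell by 0.71 ± 0.15 on the log2 scale (adjusted p = 0.000587), to a median of 814 CPM (737 to 1495). It fell by 0.79 ± 0.15 in nilotinib 30 (adjusted p = 0.000522), 0.63 ± 0.15 in nilotinib 10 (adjusted p = 0.0167), 0.62 ± 0.15 in L-NAME (adjusted p = 0.0026) and 0.60 ± 0.15 in imatinib (adjusted p = 0.00456). In ponatinib 3, with a median of 1472 CPM, the value was -0.06 ± 0.14 (adjusted p = 0.94), and ponatinib 10 lay below it by -0.64 ± 0.15 (adjusted p = 0.0166). In imatinib the neonatal Fc receptor Fcgrt rose by 0.52 ± 0.12 (adjusted p = 0.0026), and the Fc gamma receptors Fcgr1 and Fcgr3 fell by 1.16 ± 0.35 (adjusted p = 0.021) and 1.23 ± 0.30 (adjusted p = 0.00465).

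Markers of other cells were mixed. Of 11 tested T cell genes 0 passed the cut-off in any comparison with control in edgeR's test, and 1 was at an unadjusted p below 0.05 in each of imatinib (Cd4, log2 fold change -2.65), nilotinib 10 (Trbc2, 2.05) and L-NAME (Trbc2, 1.86). The summed T cell level had medians of 12.0 CPM in control, 12.0 CPM in ponatinib 10 and 20.9 CPM in both L-NAME and nilotinib 30. In nilotinib 10, ponatinib 3 and imatinib the medians were 16.3, 9.69 and 8.15 CPM. Neutrophil markers summed to a median of 3.33 CPM in control, 7.60 CPM in ponatinib 10 (0 to 40.8) and 9.79 CPM in L-NAME, with Ly6g, Mpo and Ngp at 0 in control. Hemoglobin and other erythroid genes passed the cut-off upward for 4 of 5 tested in ponatinib 3 (3.14% of all genes passed), 3 of 5 in nilotinib 30 (9.35%) and 4 of 5 in ponatinib 10 (15.0%), where Hbb-bs rose by 1.15 ± 0.32 (adjusted p = 0.00992), and their summed level had medians of 251 CPM in control, 489 CPM in ponatinib 3, 464 CPM in nilotinib 30 and 429 CPM in ponatinib 10. In ponatinib 10 mouse 008, with the highest summed level of the 10 antibody and B-lineage genes (276 CPM), neutrophil markers ranked 2nd of 56 mice, Kupffer cell markers 4th, T cell markers 55th and erythroid markers 55th. The part of blood or of other cells in the antibody levels was not tested.

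Whether the transcripts moved together from mouse to mouse was examined on log2 CPM after subtracting each group's mean, in 6 relations over 56 mice, with p from 100000 permutations within groups. Igkc with Jchain gave Pearson's r = 0.404 (permutation p = 0.00039, adjusted p = 0.00234) and Spearman's rho = 0.334 (p = 0.0127, adjusted p = 0.0763), and r was 0.345 without ponatinib 3 mouse 017 and ponatinib 10 mouse 018, the 2 mice farthest from the median. Within groups rho was 0.929 in ponatinib 3 and 0.810 in ponatinib 10, and between -0.024 and 0.310 in the other 5. Igkc with Cd79b gave r = 0.407 (permutation p = 0.00755, adjusted p = 0.0226) and rho = 0.292 (p = 0.036, adjusted p = 0.108), but r was 0.164 without the same pair of mice, so the relation rests on them. Igkc with Mzb1 gave r = 0.098 (permutation p = 0.568, adjusted p = 0.852) and rho = 0.013 (p = 0.933, adjusted p = 0.933), with r = 0.042 without that pair. Cd79a with Cd79b, the partners of 1 receptor, gave r = 0.195 (permutation p = 0.19, adjusted p = 0.38) and rho = 0.240 (p = 0.0963, adjusted p = 0.193), with r = 0.159 without the 2 farthest mice.

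The technical measures had no relation with Igkc that passed within groups. The share of reads outside genes gave r = -0.012 (permutation p = 0.94, adjusted p = 0.94) and rho = -0.078 (p = 0.586, adjusted p = 0.879), with r = 0.017 without the 2 farthest mice. Total reads on genes gave r = -0.032 (permutation p = 0.811, adjusted p = 0.94) and rho = 0.029 (p = 0.816, adjusted p = 0.933), with r = 0.049 without the 2 farthest. Without subtraction of group means, the share outside genes and Igkc gave rho = 0.366 (permutation p = 0.00597), since both were lowest in control. That share and the treatments cannot be told apart where all treated mice lay above every control mouse. With it as a covariate in the fit, Cd83, Sdc1, Pik3cd, Iglc1 and Hbb-bs in ponatinib 10 and H2-Ob, Pik3ap1, Ell2, Sdc1 and Pigr in L-NAME were no longer past the cut-off.

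**Figure D5:**
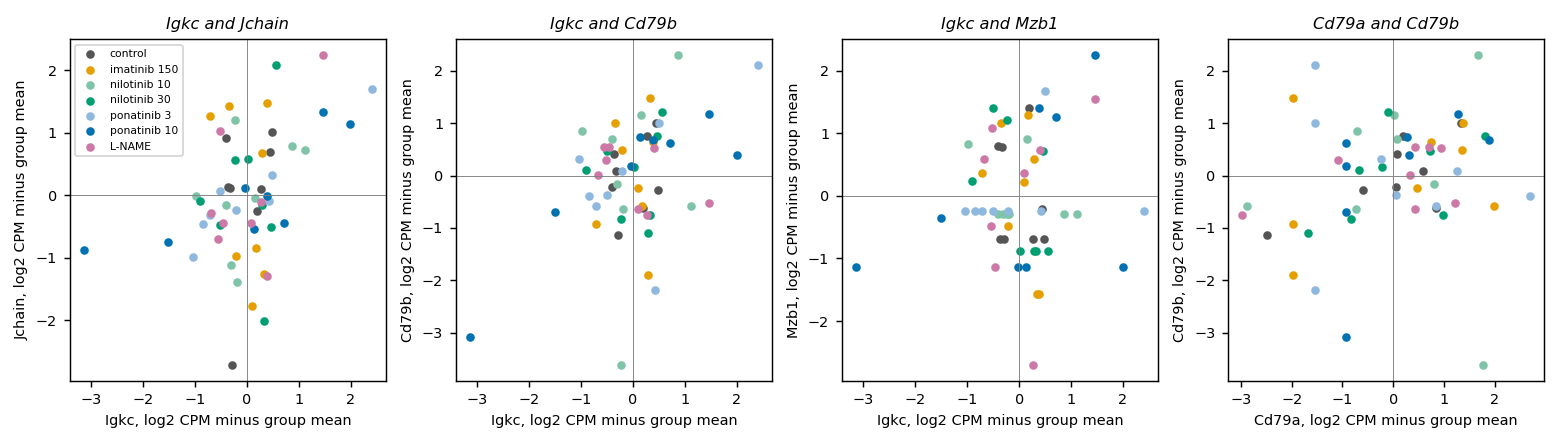
Log2 CPM minus the group mean for 4 pairs of genes, 1 point a mouse, 56 mice in 7 colours. Igkc and Jchain have r = 0.404 over all mice, with a rho of 0.929 within ponatinib 3 and 0.810 within ponatinib 10 but only -0.024 to 0.310 within the other groups. The relation of Igkc and Cd79b rests on ponatinib 3 mouse 017 at the upper right and ponatinib 10 mouse 018 at the lower left, and Igkc with Mzb1 (r = 0.098) and Cd79a with Cd79b (r = 0.195) scatter widely.

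Genes with a pattern most like Jchain over the 56 mice, after subtraction of group means, were Flt3 (rho = 0.542), Hopx (0.536) and Phka1 (0.503), followed by Rnf19b, Gabarapl2, Bbs12, Dll1, Plbd1, Serpina10 and Tob2 down to a rho of 0.427. Of the antibody genes, Igha had a rho of 0.407 with Jchain, Igkc 0.334, Ighg2c 0.330, Ighg2b 0.001 and Ighm -0.023. For Cd79b the genes most alike were Gm38329 (0.532), D330023K18Rik (0.518), Tcof1 (0.515) and Gm20045 (0.502), then Ggh, BC005561, Atp2a3, Cyth2, Ubp1 and Renbp (0.479). These are the highest of 14314 genes, and the points share library and depth.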

How the data were processed

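Poly(A) RNA of 56 livers was sequenced on a NextSeq 500 from NEBNext Ultra libraries, which do not mark the strand. Per the labels and the study's methods, the authors aligned reads to GRCm38 with TopHat2 2.0.14 and Bowtie2 2.1.0, and they deposited raw read counts per Ensembl gene from HTSeq 0.6.1p1, where reads on several places or genes are not counted. The read length was not given in the sources used here. GENCODE M21 named 44671 of 45513 genes; the other 842 held 0.059% of reads. CPM used TMM library sizes. The counts were fitted in 1 edgeR 4.0.16 quasi-likelihood model of the 7 groups (filterByExpr, 14314 genes, no covariate) in R 4.3.3, with p adjusted over all tested genes (Benjamini-Hochberg), and the study's cut-off of unadjusted p below 0.01 called a gene. Alternatives used DESeq2 1.42.0 and limma 3.58.1. The fit was tested on simulated data. Outside the 10 genes, the text names called genes with the smallest p (at most 4 per list and comparison), the 10 most like Jchain and Cd79b, and markers chosen after their values were seen. The genes and lists were chosen with earlier results of these data known. Groups and mouse numbers came from the labels, and p-values measure the spread between mice. V gene, light chain and class shares were counted without a test. Exact intervals are Clopper-Pearson. The values of 1 B cell gene are not reported here.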

Additional observations from a re-analysis of the deposited data

Results flagged for a closer look

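In 69 sets of 8 mice (1 gene in 1 group, on log2 CPM), 8 had a mouse whose gap to its nearest neighbour, as a share of the whole range, exceeded Dixon's 95% critical value. Chance flags about 1 in 20 sets. Above the others lay ponatinib 10 mouse 008 for Ighm (0.619; 91.4 against 33.0 CPM) and ponatinib 3 mouse 017 for Igkc (0.554; 93.9 against 24.8 CPM). Below the others lay nilotinib 10 mouse 025 for Ighm (0.596; 6.79 against 14.0 CPM), control mouse 022 for Jchain (0.662; 0 against 0.913 CPM) and ponatinib 10 mouse 018 for Cd79b (0.562; 0 against 0.855 CPM). The other 3 rested on few reads: Ighg3 in nilotinib 10 mouse 009 (1; 7 reads, none in the other mice), Ighg3 in nilotinib 30 mouse 015 (0.676; 6 reads) and Mzb1 in ponatinib 3 mouse 023 (1; 4 reads, none in the other mice).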

How the results depend on the processing

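No paired analysis was possible because each mouse has its own number and the groups share none. The log2 fold changes of the antibody genes kept their direction where called. Of 410 values under other settings, 403 moved by less than the spread, 7 by more and none of the called values changed sign. With 1 mouse left out it was 766, 2 and none of 768. The spread is the pooled SD of single mice within groups, 0.64 (Ighm) to 1.76 (Ighg2c) on the log2 scale. It is so wide that these counts do not show stable values. Igkc in ponatinib 3 went from 1.76 to 0.98 in limma voom with quality weights and still counted as less than the spread. Values not past the cut-off did change sign, in L-NAME among others to -0.63 for Ighg2b and -0.19 for Jchain in limma voom with quality weights and to -0.72 for Ighg2c and -1.42 for Igha in limma voom. The number of antibody genes tested was 8 in the main fit but differed without a filter on low counts and with only the 2 groups. The number past the cut-off in imatinib was 1, in place of 0, without a filter (of 10 tested) and with only the 2 groups (of 5). In nilotinib 10 it was 1 with only the 2 groups (of 6). In nilotinib 30 it was 1 without a filter (of 10), with only the 2 groups (of 5) and with the share of reads outside genes as covariate. In ponatinib 3 it was 0 at adjusted p below 0.05 and in limma voom, 1 in voom with quality weights and 4 without a filter (of 10), in place of 2. In L-NAME, in place of 1, it was 2 with DESeq2 size factors, DESeq2 and voom. It was 3 there with quality weights, without a filter (of 10) and with the covariate, and 4 with only the 2 groups (of 7). Between ponatinib doses it was 1 with quality weights, and at adjusted p below 0.05 it was 1 for ponatinib 10 against nilotinib 10 and against imatinib. Of the B-lineage genes outside the 10, 54 were tested in the main fit. Nilotinib 10 had 1 at adjusted p below 0.05, with DESeq2 size factors, without L-NAME (of 50 tested) and with the covariate. Ponatinib 3 had 0 at adjusted p below 0.05 and 2 with quality weights, with only the 2 groups (of 32) and with the covariate. Ponatinib 10 had 3 with only the 2 groups (of 32) and 4 with the covariate. L-NAME had 9 in voom, 11 with quality weights and 2 with the covariate. The cause was not tested. With 1 mouse left out, the antibody genes ranged from 0 to 1 in nilotinib 30, 1 to 3 in ponatinib 3 (lowest without mouse 017), 4 to 5 in ponatinib 10, 1 to 2 in L-NAME, 0 to 1 between ponatinib doses, 2 to 5 against nilotinib 10 and 1 to 5 against imatinib, and were 0 in imatinib and nilotinib 10, between nilotinib doses and between imatinib and nilotinib 30. The B-lineage genes ranged from 7 to 10 in imatinib, 1 to 2 in nilotinib 10, 0 to 2 in ponatinib 3 (0 without control mouse 001), 5 to 8 in ponatinib 10 and 4 to 6 in L-NAME, and stayed at 1 in nilotinib 30. Without subtraction of group means, rho was 0.306 for Cd79a with Cd79b and 0.366 for the share outside genes with Igkc, and on CPM ranks it was 0.231 for Igkc with Cd79b. Leaving out L-NAME mouse 010, chosen after seeing the data, changed no relation. Depth limits Ighg3 and Mzb1 most, with no more than 3 reads in 43 and 37 of 56 mice.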
